A study of Mus musculus with 9 samples.

Results

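The genes described here carry the growth hormone signal from its hypothalamic releasing hormone to its targets in the cell: *Ghrh*, *Ghr*, *Jak2*, *Stat5a*, *Stat5b*, *Socs1*, *Socs2*, *Socs3*, *Cish* and *Bcl6*. They were found by exact symbol, and all 10 were among the 24356 symbols of the deposited tables. Of these, 9 had a value above 0 in every library and were among the 14675 genes tested. The exception was *Ghrh*.

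The tissue was brown adipose tissue of GHRH-KO mice, which lack growth hormone releasing hormone, and of their WT littermates on a mixed C57BL6 and 129SV background. There were 9 libraries, 1 from each animal: 3 WT females, 2 KO females, 2 WT males and 2 KO males. All animals ate the same chow ad libitum, and the labels and the methods text do not give the age. The study's listing of animal demographics was not used here. Values are FPKM (fragment counts divided by transcript length and by library size, so levels of different genes can be compared), and differences are log2 FPKM, KO minus WT, averaged over both sexes unless said otherwise. *Ghrh* itself was above 0 only in libraries labelled KO (its values are given below). Groups are therefore called by their labels, and every direction rests on those labels.

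Growth hormone releasing hormone from the hypothalamus drives the pituitary to secrete growth hormone. Growth hormone binds its receptor, GHR, on the target cell, the kinase JAK2 docked to the receptor is activated, and JAK2 phosphorylates the transcription factors STAT5A and STAT5B, which enter the nucleus. STAT5 switches on *Cish* and *Socs2*, whose products bind the receptor complex and damp the signal, and it represses *Bcl6*, itself a repressor that shares many DNA sites with STAT5. In adipose tissue growth hormone is known for promoting lipolysis and for limiting fat mass.

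Estimated from the steps between low values, depth was about 22900000 to 28400000 fragments per library. The 9 brown adipocyte markers summed to 6016 to 8274 FPKM, with overlapping ranges. *Ucp1*, *Cidea*, *Cox7a1* and *Cox8b* carried most of that sum, while *Prdm16* (1.98 to 5.10 FPKM) and *Zic1* (0.442 to 2.51 FPKM) were low. KO male 1 stood apart: its Spearman correlations with the other libraries were 0.924 to 0.934, while the highest of each other library were 0.981 to 0.991. The 9 T and B lymphocyte markers summed to 225 FPKM in KO male 1 and to 1.96 to 4.98 FPKM in the other 8 libraries, and all 9 markers were highest there (*Cd3d* was at 0 in WT male 1). The 8 macrophage markers summed to 550 FPKM in KO male 1, to 43.1 to 54.2 FPKM in the other 3 KO-labelled libraries and to 68.9 to 165 FPKM in the WT-labelled ones. All 8 macrophage estimates of KO minus WT were below 0, and *Cd163* passed the threshold (log2 difference -0.92). The 10 skeletal muscle markers summed to 2100 to 9727 FPKM in the libraries labelled KO and to 338 to 1781 FPKM in those labelled WT, with all 10 estimates above 0 and *Acta1*, *Myh1* and *Mylpf* past the threshold. The 6 fibroblast markers summed to 123 to 203 FPKM against 153 to 282 FPKM, with all 6 estimates below 0. *Col1a1* (log2 difference -1.10), *Col3a1* (-1.03) and *Lum* (-1.22) passed the threshold and lay below every WT-labelled library. The 6 white adipocyte markers summed to 33.6 to 95.8 FPKM against 71.0 to 318 FPKM, with *Lep* past the threshold (-3.21) and *Hoxc9* and *Hoxc10* at or near 0. The study's own names for the libraries add 1 number that all animals of a sex and genotype group share and other groups lack. No source used here says what it marks, so whatever it stands for cannot be told apart from the groups. The part of these cells in the results below was not tested, and in bulk tissue fewer cells of a type and less RNA per cell cannot be told apart.

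STAT5 binds the palindrome TTCNNNGAA, so the stretches around the starts of the target genes are shown for the member with the largest difference, *Cish*, and for *Bcl6*. Windows of 250 bases before to 50 after each start came from RefSeq on GRCm38.p6, and 9 of the 10 genes had at least 1, the exception being *Socs2*. Both strands are covered, since the motif reads the same on each. The *Cish* stretch is chr9:107296439-107296688 on the plus strand, from 220 bases before to 30 after the start, and the *Bcl6* stretch is chr16:23981254-23981503 on the minus strand, laid out alike around the second RefSeq start, which lies inside the gene. Capitals mark each match to TTCNNNGAA.
*Cish*: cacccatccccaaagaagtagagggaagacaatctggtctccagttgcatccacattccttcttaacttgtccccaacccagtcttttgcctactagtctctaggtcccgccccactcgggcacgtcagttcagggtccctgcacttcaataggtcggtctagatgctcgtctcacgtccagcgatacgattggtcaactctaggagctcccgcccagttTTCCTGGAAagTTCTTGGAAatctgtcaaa
*Bcl6*: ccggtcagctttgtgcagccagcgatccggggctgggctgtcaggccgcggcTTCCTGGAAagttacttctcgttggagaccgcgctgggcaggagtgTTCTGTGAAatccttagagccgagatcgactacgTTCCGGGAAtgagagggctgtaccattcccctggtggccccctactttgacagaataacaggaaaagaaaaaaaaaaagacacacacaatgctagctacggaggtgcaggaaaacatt

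The *Cish* window held 2 matches, the first beginning at base 1 from the RefSeq start and the next at base 12. The GENCODE span of *Cish* begins upstream of this window, at chr9:107296026, so that start also lies inside the gene. The *Bcl6* window shown held 3, beginning 168, 122 and 88 bases before the start, and the window at the outer *Bcl6* start held 1, beginning 118 bases before it. *Socs3* held 1, TTCTTAGAA, beginning 154 bases before its start. In all, 4 of the 14 windows of these genes held a match (28.6%), against 8.3% of all 32851 RefSeq windows, and 0.457% of all windows held 2 or more. These are matches of letters within the windows, not measured binding.

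*Ghrh*, the gene disrupted in the knockout (chr2:157329497-157347506, mm10), was listed at 0 FPKM in all 5 libraries labelled WT. In the libraries labelled KO it was at 0.846 and 0.233 FPKM in the females and at 0.799 and 0.470 FPKM in the males. The groups did not overlap, and the KO-labelled libraries were higher (exact permutation p = 0.00794, two-sided, the smallest that 126 splits allow). The values stand for about 7.17, 2.01, 8.06 and 4.07 fragments on a transcript of 516 bases. Of all 24356 symbols, 2 (0.00821%) were above 0 in every KO-labelled library and at 0 in every WT-labelled one. A value per gene does not separate exons, so it does not show which part of the gene was read.

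The hormones and receptors upstream were little detected in this tissue. Of the 13 genes of that list (*Gh*, *Prl*, *Ghrhr*, the ghrelin and somatostatin genes with their receptors, and 2 pituitary factors), 8 were at 0 in every library and only the somatostatin receptor *Sstr4* was tested. *Sstr4* was at 0.0336 to 0.173 FPKM in KO-labelled and 0.0881 to 0.251 FPKM in WT-labelled libraries, overlapping ranges (log2 difference -1.44, limma adjusted p = 0.118).

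*Ghr*, the growth hormone receptor (chr15:3317760-3583492, minus strand), had the highest level of these genes. Its FPKM were 97.3, 84.4 and 62.8 in WT females, 42.6 and 50.7 in KO females, 71.2 and 155 in WT males and 42.2 and 51.6 in KO males. Every library labelled KO lay below every library labelled WT, and WT male 2 was the highest of all. WT male 2 and WT female 1, the highest for *Ghr*, also had the highest sums of white adipocyte markers (290 and 318 FPKM). Most of each sum was *Retn* (268 and 287 FPKM). The other WT-labelled libraries had sums of 71.0 to 80.9 FPKM. These were below KO female 2 (95.8 FPKM) and KO male 2 (85.2 FPKM), although their *Ghr* was higher. The part of white adipocytes in *Ghr* was not tested. The means were 46.8 ± 5.08 FPKM (SD, n = 4) and 94.2 ± 36.6 FPKM (SD, n = 5). The log2 difference of -0.98 (SE 0.24) missed the threshold with a limma adjusted p of 0.0660. It was -0.79 in females (adjusted p = 0.373) and -1.17 in males (adjusted p = 0.151). Without WT male 1, which left the WT males with no replicate, it was -1.26. Over those of the 18 alternatives with replicates in every group, the limma adjusted p was 0.0576 to 0.138. The exact permutation test of the FPKM means gave p = 0.0238, two-sided and unadjusted, and 0.0536 when any 1 KO-labelled library was left out.

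*Jak2*, the kinase docked to the receptor (chr19:29251828-29313080), was at 4.74, 4.18 and 4.25 FPKM in WT females, 4.07 and 3.80 in KO females, 4.49 and 5.10 in WT males and 8.48 and 4.48 in KO males. Apart from KO male 1, at 8.48 FPKM, all libraries lay between 3.80 and 5.10 FPKM. The log2 difference was 0.10 (SE 0.18, limma adjusted p = 0.831), and without KO male 1 it was -0.13 (limma adjusted p = 0.486, 0.10 to 0.931 over the alternatives).

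The paired transcription factors of the pathway lie side by side on chromosome 11, *Stat5b* at chr11:100780731-100850724 and *Stat5a* at chr11:100859351-100885169. *Stat5a* was at 22.9, 24.6 and 19.1 FPKM in WT females, 23.8 and 24.4 in KO females, 20.9 and 20.7 in WT males and 19.5 and 18.6 in KO males. Its groups overlapped and its means were 21.6 ± 2.96 FPKM (SD, n = 4) in KO-labelled and 21.6 ± 2.16 FPKM (SD, n = 5) in WT-labelled libraries (limma adjusted p = 0.999). Its exons overlap *Stat3* on the other strand, and no source used here says whether fragments were counted by strand. Exons of *Cish* likewise overlap *Gm17040* and *Gm17041*, and those of *Bcl6* overlap *Gm37419*, all on the other strand and absent from the deposited tables.

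*Stat5b* was at 11.7, 11.5 and 10.01 FPKM in WT females, 14.4 and 13.5 in KO females, 10.7 and 10.8 in WT males and 18.5 and 13.2 in KO males. All KO-labelled libraries lay above all WT-labelled ones, with KO male 1 the highest. The means were 14.9 ± 2.47 FPKM (SD, n = 4) against 10.9 ± 0.693 FPKM (SD, n = 5). The log2 difference of 0.44 (SE 0.11) missed the threshold, with a limma adjusted p of 0.0750. It passed with median centring (limma adjusted p = 0.0425) and with quantile normalization (0.0408). The limma adjusted p was 0.0408 to 0.148 over the alternatives with replicates in every group. Without KO male 2, which left KO male 1 as the only KO male, the difference was 0.56. Without KO male 1, the library rich in lymphocyte markers, it was 0.32 (limma adjusted p = 0.0859), and the groups still did not overlap.

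As a share of the summed *Stat5a* and *Stat5b* FPKM, *Stat5b* made up 33.9%, 31.8% and 34.4% in WT females, 37.7% and 35.6% in KO females, 33.8% and 34.3% in WT males and 48.7% and 41.5% in KO males. The share was higher in every KO-labelled library, at 40.9% ± 5.76 (SD, n = 4) against 33.6% ± 1.06 (SD, n = 5; exact permutation p = 0.00794, two-sided). The share rests on the same *Stat5b* values, which already separated the groups, so its p is no separate result. The sum itself differed less (exact permutation p = 0.103, two-sided). Of all 50-base stretches, 8.21% of those in *Stat5a* and 10.98% of those in *Stat5b* also occur in the other gene, so some fragments could be shared between them.

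**Figure D1:**
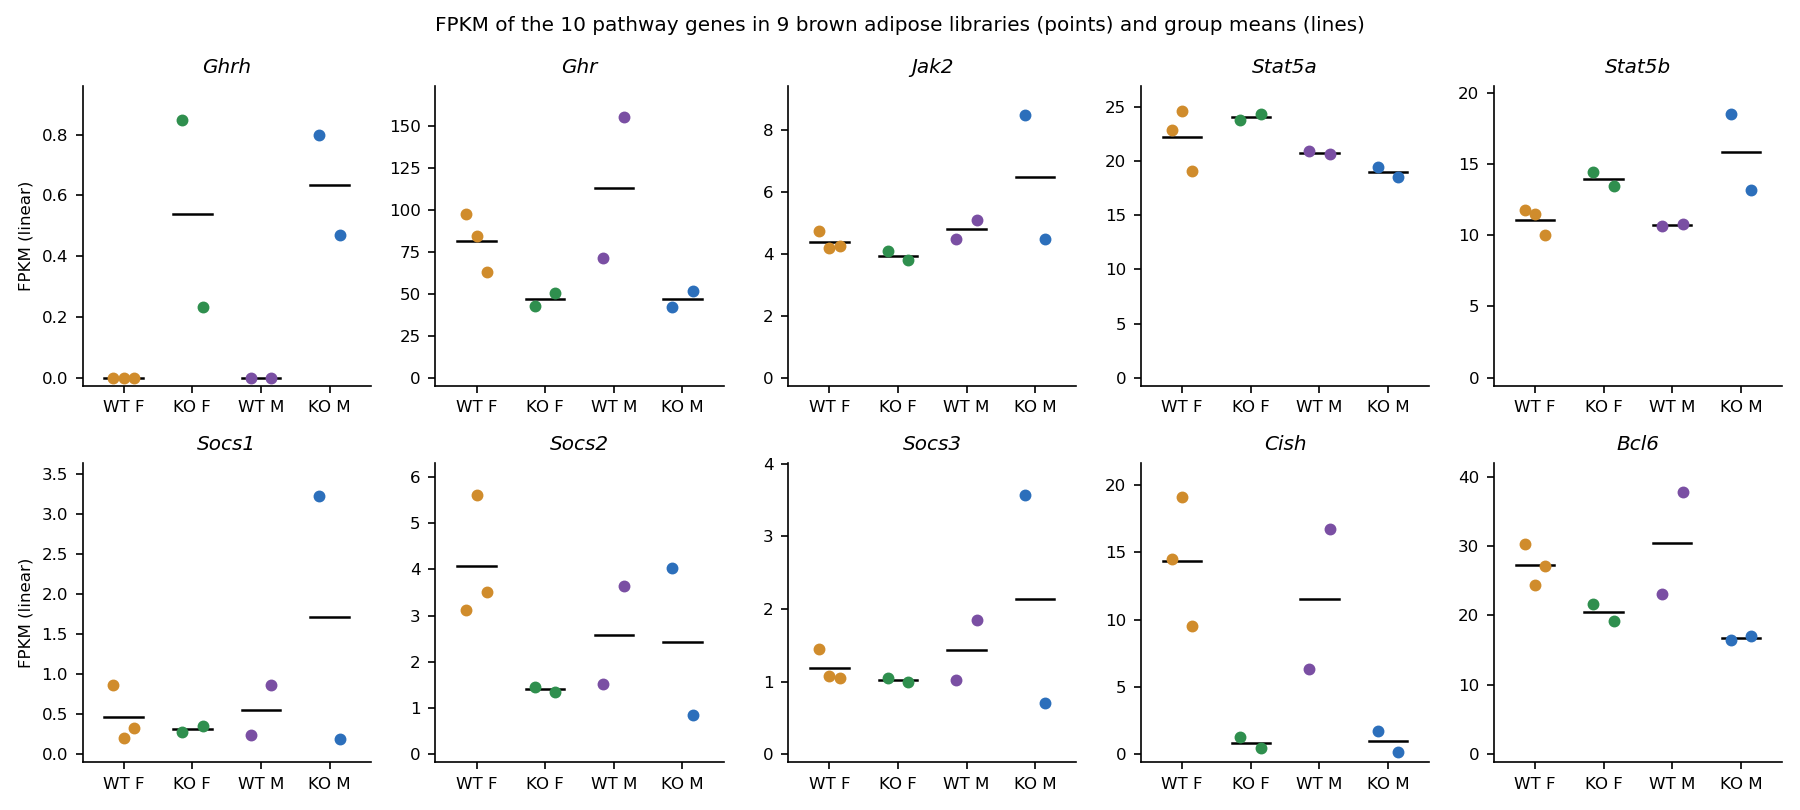
FPKM on a linear axis of the 10 genes in each of the 9 libraries (points, 1 a library) by labelled genotype and sex, with a line at each group mean (WT F n = 3, the others n = 2). *Ghr*, *Cish* and *Bcl6* are lower in all 4 KO-labelled libraries than in any WT-labelled library, *Ghrh* and *Stat5b* are higher, and the high KO male in *Jak2*, *Socs1*, *Socs2* and *Socs3* is KO male 1.

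*Cish*, which encodes the STAT5-induced feedback inhibitor CIS (chr9:107296026-107302784), was the only one of these genes to pass the threshold. Its FPKM were 14.5, 19.1 and 9.52 in WT females, 1.26 and 0.474 in KO females, 6.31 and 16.8 in WT males and 1.74 and 0.165 in KO males. The highest library labelled KO lay well below the lowest labelled WT. The means were 0.911 ± 0.722 FPKM (SD, n = 4) and 13.2 ± 5.26 FPKM (SD, n = 5). The log2 difference of -4.21 (SE 0.71, limma adjusted p = 0.0347) is 18.5-fold, the 26th lowest of the 14675 genes, and the exact permutation test of the FPKM means gave p = 0.0159, two-sided.

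Measured against the mean of the WT-labelled libraries, the 4 KO-labelled ones held 9.51% and 3.58% (females) and 13.2% and 1.24% (males) of the *Cish* level. KO male 2 and KO female 2 stand for about 10.8 and 30.9 fragments, against 472 to 1281 in the WT-labelled libraries. The limma estimate was -4.16 in females (adjusted p = 0.168), it was -4.26 in males (adjusted p = 0.106), and the male estimate minus the female one was -0.10 (SE 1.42, adjusted p = 0.987).

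The *Cish* call held in 9 of 18 alternatives, and its direction in all of them. With pseudocount 1, which shrinks differences at low values, the difference was -2.85. When 1 library was left out it stayed between -5.06 and -3.36, and it was largest without KO male 1 (limma adjusted p = 0.0110) and smallest without KO male 2 (-3.36, limma adjusted p = 0.0194). The limma adjusted p was above the threshold without WT female 1 (0.0814), WT female 2 (0.0886), WT female 3 (0.0752), KO female 1 (0.130), KO female 2 (0.103) or WT male 2 (0.0921). It was also above without the mean-variance trend (0.0692), with array weights (0.0528) and with the filter off and pseudocount 0.1 (0.0507), and it was 0.0110 to 0.130 over the 18 alternatives.

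*Socs2*, the other STAT5-induced inhibitor of the receptor complex (chr10:95385362-95417180), was at 3.12, 5.61 and 3.51 FPKM in WT females, 1.46 and 1.34 in KO females, 1.52 and 3.63 in WT males and 4.02 and 0.858 in KO males. The KO females lay below the WT females, while KO male 1 lay among the WT-labelled libraries and the groups as a whole overlapped. The log2 difference was -0.92 (SE 0.48, limma adjusted p = 0.344), and it was -0.36 without KO male 2 and -0.60 without WT male 2. Without KO male 1 the range of the KO-labelled libraries, 0.858 to 1.46 FPKM, lay below that of the WT-labelled ones, 1.52 to 5.61 FPKM. The difference was then -1.47 (SE 0.33) with a limma adjusted p of 0.0594 (0.0594 to 0.686 over the alternatives), and the exact permutation test, two-sided, gave p = 0.0714.

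*Socs1*, an inhibitor induced mainly by interferons and other cytokines (chr16:10782240-10785536), was at 0.870, 0.207 and 0.329 FPKM in WT females, 0.279 and 0.351 in KO females, 0.239 and 0.863 in WT males and 3.22 and 0.195 in KO males. KO male 1 alone was above 1 FPKM, and the groups overlapped. The log2 difference was 0.24 (SE 0.87, limma adjusted p = 0.928), and without KO male 1 it was -0.77 (limma adjusted p = 0.450, 0.242 to 0.996 over the alternatives).

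*Socs3*, best known as the inhibitor of receptors of the interleukin 6 and leptin type (chr11:117966079-117970047), was at 1.45, 1.07 and 1.05 FPKM in WT females, 1.05 and 0.997 in KO females, 1.02 and 1.85 in WT males and 3.57 and 0.705 in KO males. KO male 1 was again the highest library. The log2 difference over both sexes was near 0 (SE 0.46, limma adjusted p = 0.9997), and without KO male 1 it was -0.58 (limma adjusted p = 0.185, 0.183 to 0.9997 over the alternatives).

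**Figure D2:**
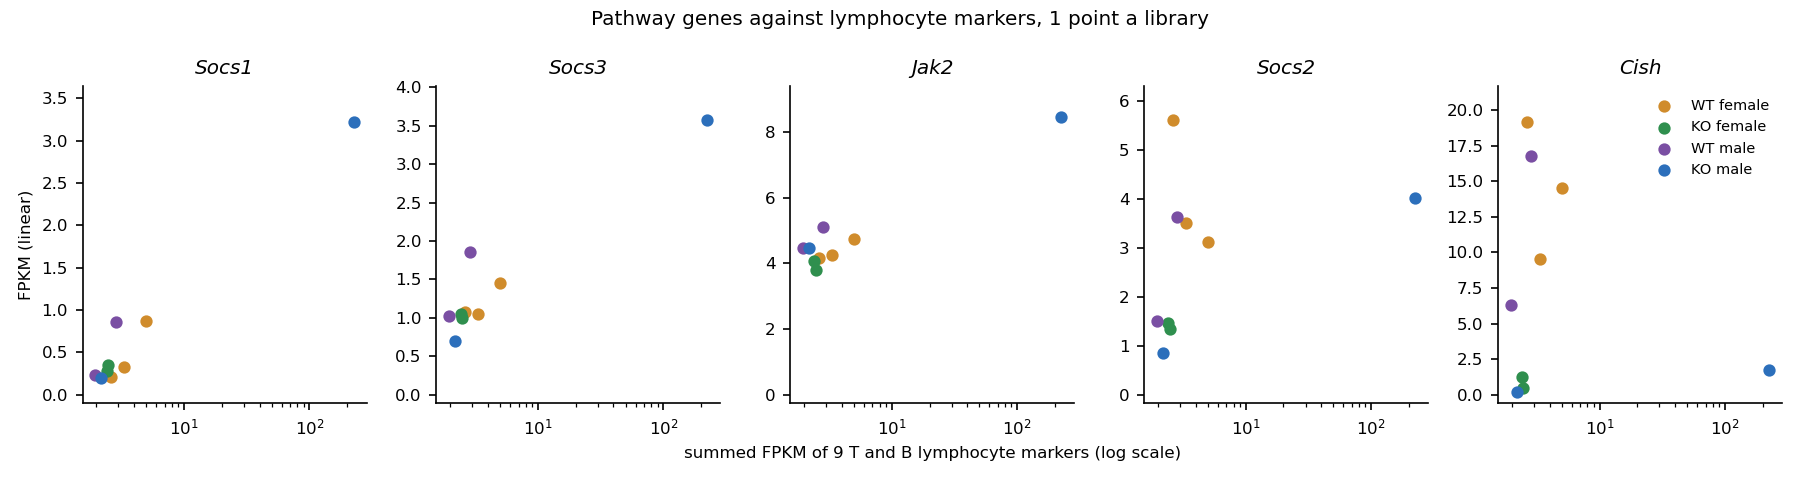
FPKM (linear axis) of *Socs1*, *Socs3*, *Jak2*, *Socs2* and *Cish* against the summed FPKM of 9 T and B lymphocyte markers (log axis), 1 point a library, coloured by labelled group. KO male 1, at 225 FPKM of markers, is the highest library for *Socs1* (3.22), *Socs3* (3.57) and *Jak2* (8.48 FPKM), while for *Cish* (1.74 FPKM) it lies below all WT-labelled libraries.

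*Bcl6*, the repressor that STAT5 holds down (chr16:23965052-23988852), was at 30.4, 24.4 and 27.1 FPKM in WT females, 21.7 and 19.2 in KO females, 23.0 and 37.8 in WT males and 16.4 and 17.0 in KO males. All KO-labelled libraries lay below all WT-labelled ones. That is the same direction as *Cish*, although STAT5 raises *Cish* and represses *Bcl6*, and the cause was not tested. The means were 18.6 ± 2.40 FPKM (SD, n = 4) and 28.6 ± 5.90 FPKM (SD, n = 5). The log2 difference of -0.62 (SE 0.15) missed the threshold with a limma adjusted p of 0.0648. Without WT male 1, which left the WT males with no replicate, it was -0.80. Over those of the 18 alternatives with replicates in every group, the limma adjusted p was 0.0557 to 0.133. The exact permutation test of the FPKM means gave p = 0.0159, two-sided and unadjusted.

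Set together, 1 of the 9 tested genes passed the threshold between the labelled genotypes, *Cish*, and it fell, where 3.6% of all tested genes passed (2.17% lower, 1.43% higher in KO-labelled libraries). KO-labelled and WT-labelled libraries did not overlap for *Ghr*, *Cish* and *Bcl6* (KO lower) and for *Stat5b* (KO higher), 4 of 9 genes, where 9.07% of all tested genes did not overlap (6.04% lower, 3.03% higher). The median log2 difference of the 9 genes was near 0, beside -0.07 over all 14675. Without KO male 1, *Cish* was again the 1 member past the threshold (3.01% of all genes were), and the genes with no overlap were *Ghr*, *Socs2*, *Cish* and *Bcl6* (lower, as were 13.5% of all tested genes) and *Stat5b* (higher, 3.98%).

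Within females no member passed the threshold (0.0204% of all tested genes did), and the ranges did not overlap for *Stat5b* (KO higher) or for *Ghr*, *Jak2*, *Socs2*, *Socs3*, *Cish* and *Bcl6* (KO lower), 7 of 9 genes against 40.4% of all (26.6% lower, 13.8% higher). Within males no member passed either (0.0136% of all), and the ranges did not overlap for *Stat5b* (KO higher) or for *Ghr*, *Stat5a*, *Cish* and *Bcl6* (KO lower), 5 of 9 genes against 39.4% of all (28.7% lower, 10.8% higher). With 2 or 3 libraries a side, such separation was common across the transcriptome.

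None of the 9 genes passed for the interaction of sex and genotype in limma, where 0 of all tested genes passed and 1028 (7.01%) had an unadjusted p under 0.05. The estimates for the members ran from -0.41 for *Bcl6* (SE 0.30) to 1.16 for *Socs2* (SE 0.96). Between males and females none passed (0.0136% of all tested genes did), and the ranges of the sexes overlapped for all 10 genes. The sex difference with the lowest adjusted p was that of *Stat5a*, at -0.21 in males (SE 0.09, limma adjusted p = 0.455).

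**Figure D3:**
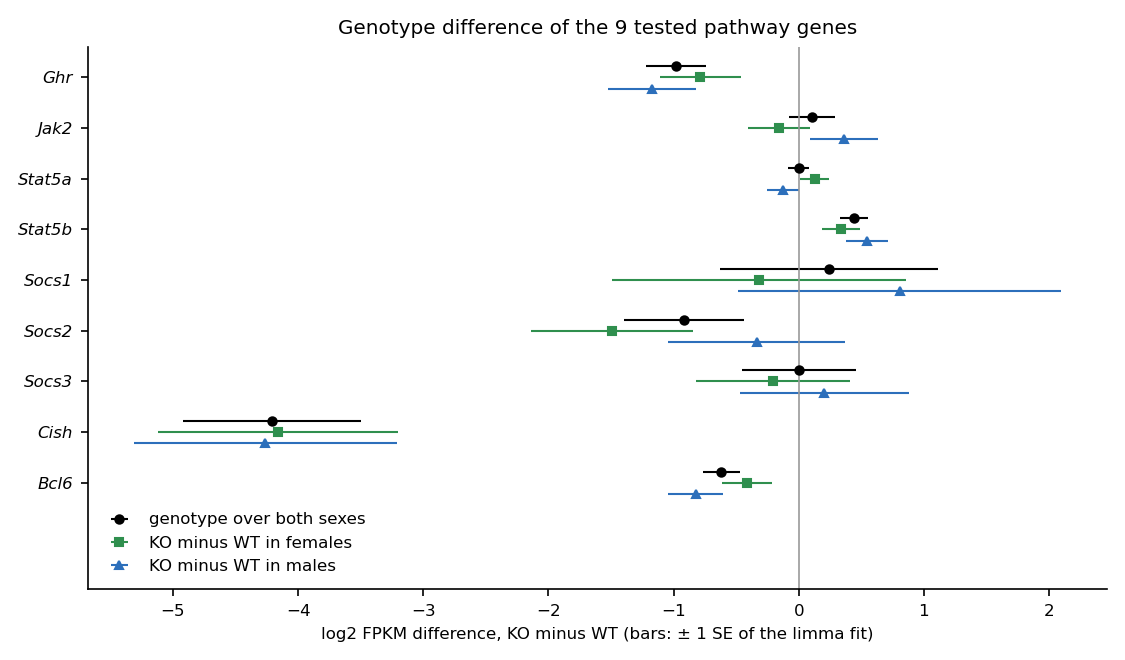
Difference in log2 FPKM (x axis, KO minus WT by label) of the 9 tested genes over both sexes and within females and males, with bars of ± 1 SE of the limma fit. *Cish* lies near -4 in both sexes, *Ghr* and *Bcl6* lie below 0 and *Stat5b* above 0 in both, and *Jak2*, *Stat5a*, *Socs1* and *Socs3* have opposite signs in the sexes. Without KO male 1 (not plotted) the male differences were -0.095 for *Jak2*, -1.22 for *Socs1* and -0.96 for *Socs3*, below 0 as in females.

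The order of the levels differed most for *Cish*. By mean FPKM in the WT-labelled libraries the order was *Ghr* (94.2), *Bcl6* (28.6), *Stat5a* (21.6), *Cish* (13.2), *Stat5b* (10.9), *Jak2* (4.55), *Socs2* (3.48), *Socs3* (1.29), *Socs1* (0.501) and *Ghrh* (0). Neighbouring ranges were separate between *Ghr* and *Bcl6*, *Stat5b* and *Jak2*, *Socs3* and *Socs1*, and *Socs1* and *Ghrh*, and they overlapped for the other neighbours. In the KO-labelled libraries *Cish* came 9th at 0.911 FPKM, after *Socs1* at 1.01 FPKM, and only *Ghr* and *Stat5a*, and *Stat5b* and *Jak2*, were neighbours with separate ranges. *Socs1* lay above *Cish* in 2 of these libraries. Without KO male 1 the KO-labelled means were 0.275 FPKM for *Socs1* and 0.633 FPKM for *Cish*.

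Across the 9 libraries the tested genes whose log2 FPKM followed *Ghr* most closely were *St6galnac5* (Pearson r = 0.974), *Phldb1* (0.974), *Gspt1* (0.972), *Ccdc80* (0.970) and *Scn7a* (0.966). All 5 were lower in every KO-labelled than in any WT-labelled library, as were 6.04% of all tested genes. None of the 5 passed the threshold between genotypes. They were picked for following *Ghr*, which itself separated the groups, so their separation adds no further result. Of the members, *Bcl6* came 124th of all genes in this order (r = 0.894) and *Cish* 960th (r = 0.739), while *Stat5b* ran the other way (r = -0.679). For *Socs2* the closest were *Endod1* (r = 0.996), *Rab11fip4* (0.959), *Ptgfrn* (0.955), *Zfp800* (0.954) and *Mapre1* (0.954), with *Cish* 358th (r = 0.806). These coefficients describe the 9 libraries, which share labelled groups and the library that stood apart.

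The wider pathway was read from lists of genes around JAK2 and STAT5, each counted against the 3.6% of all genes that passed. Of the 8 other JAK and STAT genes none passed, with a median log2 difference of -0.04. *Stat4*, a STAT of T cells, had an estimate of 0.72 (limma adjusted p = 0.803) that was -0.72 without KO male 1, where it stood at 4.68 FPKM against 0.0330 to 0.176 FPKM in the other libraries. *Stat6*, which serves interleukin 4, had one of 0.07 (limma adjusted p = 0.804), and -0.05 without KO male 1.

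Of the 16 other inhibitors and phosphatases none passed, with a median of -0.06. The adaptor *Grb10*, which binds the insulin and IGF1 receptors, was lowest in p within that list, at 3.22 ± 0.488 FPKM (SD, n = 4) in KO-labelled and 4.46 ± 0.776 FPKM (SD, n = 5) in WT-labelled libraries, with overlapping ranges (log2 difference -0.44, limma adjusted p = 0.165). *Sh2b3*, an adaptor that restrains JAK2, followed with an estimate of -0.26 (limma adjusted p = 0.429).

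Of the 18 adaptors and kinases beside JAK2 none passed, with a median of -0.08. *Irs2*, an insulin receptor substrate that JAK2 can also engage, was at 11.4, 15.9 and 21.4 FPKM in WT females, 6.15 and 5.66 in KO females, 3.18 and 15.4 in WT males and 1.36 and 1.59 in KO males. KO lay below WT within each sex, and the groups overlapped when the sexes were joined (log2 difference -1.83, SE 0.43, limma adjusted p = 0.0609). Without WT male 1, which left the WT males with no replicate, the difference was -2.40. The limma adjusted p was 0.0537 to 0.129 over the alternatives with replicates in every group. *Pik3r1*, the regulatory subunit of PI3 kinase, was at 4.71 to 8.37 FPKM in KO-labelled and 7.98 to 23.2 FPKM in WT-labelled libraries (log2 difference -1.07, SE 0.23). Its limma adjusted p of 0.0505 was just above the threshold. It was 0.0440 to 0.115 over the alternatives with replicates in every group.

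Of 17 other receptors that use JAK2 or STAT5, 15 were tested and none passed, with a median of -0.22. *Epor*, the erythropoietin receptor, had the lowest p of these, with a log2 difference of -0.75 (limma adjusted p = 0.195). *Ifngr1*, a chain of the interferon gamma receptor, followed at -0.39 (limma adjusted p = 0.306).

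Of 14 other genes known to respond to STAT5 or growth hormone, 12 were tested (*Onecut1* and *Osm* were not), 2 passed and both were lower in KO-labelled libraries. The list was not sorted by whether growth hormone raises or lowers a gene, so a shared direction does not show a shared response. The median log2 difference was -0.51, and 10 of 12 estimates were below 0, as were most of all tested genes, 37.5% of which had an estimate above 0. *Pik3r1* (-1.07), already counted among the adaptors and kinases above, is in this list as well. *Igfals*, which encodes the acid-labile subunit that holds IGF1 in the circulation, was at 5.34, 4.46 and 1.87 FPKM in WT females, 1.29 and 0.994 in KO females, 3.39 and 6.01 in WT males and 0.922 and 0.506 in KO males. Every KO-labelled library lay below every WT-labelled one (log2 difference -2.18, SE 0.37, limma adjusted p = 0.0347). The call was lost in 8 of 18 alternatives, among them leaving out WT female 1 (limma adjusted p = 0.0739), WT female 2 (0.0886), KO female 1 (0.134), KO female 2 (0.103) or WT male 2 (0.0918), and the range was 0.0256 to 0.134.

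*Cidec*, a lipid droplet protein, was at 617, 547 and 569 FPKM in WT females, 509 and 523 in KO females, 533 and 689 in WT males and 383 and 355 in KO males. The groups did not overlap, and the difference was smaller than that of *Igfals* (log2 -0.44, SE 0.09, limma adjusted p = 0.0456). Its call was kept in only 3 of 18 alternatives, and leaving out any 1 library other than WT male 1 gave a limma adjusted p of 0.0572 to 0.170.

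*Igf1*, the growth factor that growth hormone induces, was at 5.66, 4.75 and 2.68 FPKM in WT females, 0.713 and 0.892 in KO females, 2.13 and 8.80 in WT males and 2.46 and 1.28 in KO males. KO females lay below WT females, and KO male 1 lay above WT male 1 (log2 difference -1.84, SE 0.45, limma adjusted p = 0.0661). Without WT male 1, which left the WT males with no replicate, the difference was -2.35. The limma adjusted p was 0.0547 to 0.141 over the alternatives with replicates in every group.

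**Figure D4:**
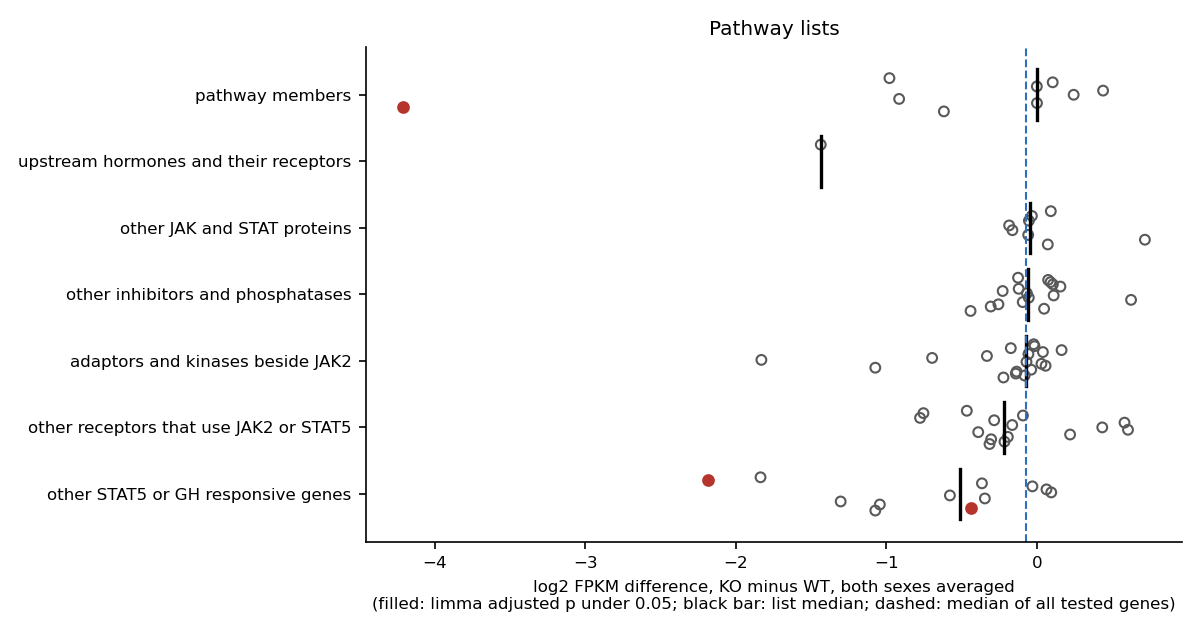
Difference in log2 FPKM (x axis, KO minus WT by label, both sexes averaged) of each tested gene in the pathway lists, 1 circle a gene, filled where the limma adjusted p was under 0.05, with a black bar at the list's median and a dashed line at the median of all 14675 genes (-0.07). The 3 filled genes are *Cish* (-4.21), *Igfals* (-2.18) and *Cidec* (-0.44).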

How the data were processed

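Brown adipose RNA of 9 mice was sequenced as paired reads of poly A+ RNA. The authors deposited 1 table of FPKM per library, already normalized to transcript length and library size. Per the study's methods, bcl2fastq 1.8.4 wrote the reads, TopHat 2.0.11 aligned them to mm10, and abundances came from Bowtie. The annotation and strand setting are not given in the sources used here.

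Genes above 0 in all 9 libraries (14675) were tested on log2 FPKM with pseudocount 0 in limma, with a mean for each of the 4 groups, a mean-variance trend and Benjamini-Hochberg adjustment over all tested genes at 0.05. The genotype contrast averages the sexes. For single values, exact permutation tests took all 126 splits into 4 and 5 libraries, over 10 genes, unadjusted. The *Stat5b* share and the sum of *Stat5a* and *Stat5b* were tested in the same way. Named genes were the 10 members, the 2 lowest in p of each list, *Igf1*, and the 5 closest to *Ghr* and to *Socs2*. The members and lists were chosen with earlier results of these data known. Replicates are separate animals, numbered in accession order. Depth was estimated by reading 1 fragment as the step between low FPKM, and 72.8% to 82.3% of the low values used lay within 5% of 1 such step. Positions are GENCODE M21 on mm10. The fit was checked on simulated data. Alternatives changed the pseudocount (0.1 and 1), filter, scaling, trend, weights and model, or left out each library. Fits used limma 3.58.1 in R 4.3.3. All else used Python 3.11.15, with scipy 1.17.1 and numpy 2.4.6 for tests, pandas 2.3.3 for tables and matplotlib 3.10.9 for figures.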

Additional observations from a re-analysis of the deposited data

Results flagged for a closer look

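Values that lay far from the rest of their labelled genotype group, by a Dixon criterion that chance meets in about 1 of 20 groups, came mostly from KO male 1. Among the 4 KO-labelled libraries it was the high one for *Jak2* (8.48 FPKM), *Socs1* (3.22 FPKM), *Socs3* (3.57 FPKM), *Stat4* (4.68 FPKM) and *Rab11fip4* (0.944 FPKM). The same library was high for the summed T and B lymphocyte markers (225 FPKM) and the summed macrophage markers (550 FPKM). Among the 5 WT-labelled libraries, WT male 2 was the high one for *Sh2b3* (10.4 FPKM), *Gspt1* (14.5 FPKM) and *Scn7a* (6.27 FPKM). The part of lymphocytes and macrophages in the values of KO male 1 was not tested.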

How the results depend on the processing

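The direction of *Ghr*, *Stat5b*, *Socs2*, *Cish* and *Bcl6* over both sexes was kept in all 18 alternatives. The number of members past the threshold there was 1 (*Cish*), with 2 (*Cish*, *Stat5b*) under median centring and under quantile normalization, and 0 without the mean-variance trend and with array weights. With the filter off and pseudocount 0.1 the count was again 1, but the gene was *Ghrh*, which could be fitted only there (log2 difference 2.66, limma adjusted p = 0.0337), and *Cish* was at 0.0507. The count was 0 to 3 when 1 library was left out, 2 without KO male 2 (*Cish*, *Stat5b*) and 3 without WT male 1 (*Ghr*, *Cish*, *Bcl6*). In females it was 0, and 1 with array weights. In males it was 0, and 0 to 2 with 1 library left out. For the interaction and for sex it was 0, and 0 to 1 with 1 library left out. Of all genes, 529 passed between genotypes, 508 with pseudocount 0.1, 170 with the filter off as well, 222 with median centring (58.6% of them higher, against 39.7%), 444 with quantile normalization (51.4% higher), 34 without the trend, 55 with array weights and 1107 by the ordinary linear model at an unadjusted p under 0.01. With 1 library left out it was 442 without KO male 1, 1105 without KO male 2, 816 without WT male 1 and 8 to 37 without any of the others. In females 3 passed, 11 with the mean filter, 372 with array weights and 0 to 19 with 1 library left out. That range was 0 to 1293 in males (2 passed, 13 with the mean filter), 0 to 721 for the interaction (0 passed) and 1 to 803 for sex (2 passed, 10 with the filter off and pseudocount 0.1).

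Some estimates changed sign. *Stat5a* was 0.058 under median centring, 0.051 under quantile normalization, 0.012 with array weights and 0.011 in the additive model, where *Socs3* was -0.018. With 1 library left out, the genotype estimates ran from -0.053 to 0.039 for *Stat5a*, -0.13 to 0.34 for *Jak2*, -0.77 to 1.26 for *Socs1*, -0.58 to 0.59 for *Socs3*, -0.72 to 2.15 for *Stat4* and -0.048 to 0.19 for *Stat6*. In females *Socs1* ran from -0.77 to 0.26, and in males estimates ran from -0.095 to 0.83 for *Jak2*, -1.22 to 2.83 for *Socs1*, -1.45 to 0.78 for *Socs2* and -0.96 to 1.38 for *Socs3*. The interaction of *Cish* was 0.083 with pseudocount 0.1, filter on or off, 0.35 with pseudocount 1, and -1.81 to 1.602 with 1 library left out, where that of *Ghr* ran from -0.95 to 0.18. Differences in mean FPKM ran from -0.43 to 1.12 for *Jak2*, -0.23 to 0.78 for *Socs1*, -0.37 to 0.58 for *Socs3* and -0.9978 to 0.93 for *Stat5a*. The cause was not tested.

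No paired analysis was possible because the animals of the groups share no replicate numbers in the labels. The lowest values rest on few fragments (about 2.01 for *Ghrh* in KO female 2), and 2 or 3 libraries a group limit every comparison within a sex.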
